A study of Mus musculus with 3 samples.

Results

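The RANK ligand, osteoprotegerin and CSF1 axis is the set of signals that controls how osteoclasts form. It was followed here through 7 genes, *Tnfsf11*, *Tnfrsf11b*, *Tnfrsf11a*, *Traf6*, *Csf1*, *Il34* and *Csf1r*, taken by symbol from a table of 26970 genes. Each of the 7 symbols was found on 1 row. The rows were taken by symbol, with no threshold on expression, but the genes were listed with earlier results of these data known. RNA sequencing was performed on mandibular condyles from 4-month-old mice of 3 genotypes: WT (+/+), heterozygous *Dspp* knockout (*Dspp*+/-) and homozygous *Dspp* knockout (*Dspp*-/-). The knockout is global, carried by every tissue, and the mice were on the C57BL/6 background. Cartilage and subchondral bone of the temporomandibular joint condyle were kept together, and according to the methods condyles of 3 animals went into a single pool for WT and likewise for *Dspp*+/-. The number of *Dspp*-/- animals is not given in the sources used here. Each genotype is therefore 1 library, no difference between genotypes has a replicate check, and no p-value is given.

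RANK ligand, encoded by *Tnfsf11*, is a TNF family cytokine made in bone mainly by osteocytes, osteoblasts, stromal cells and hypertrophic chondrocytes. It binds RANK, encoded by *Tnfrsf11a*, on osteoclast precursors, and RANK passes the signal to NF-kB and NFATc1 through the adaptor TRAF6. Osteoprotegerin (OPG), encoded by *Tnfrsf11b*, is a soluble decoy receptor that binds RANK ligand and keeps it from RANK, so the ratio of ligand to decoy is commonly used as a measure of the drive towards resorption. CSF1 and IL-34 are separate ligands of a shared receptor tyrosine kinase, CSF1R, which keeps monocytes, macrophages and osteoclast precursors alive and dividing.

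The ligand and its receptor are represented here by the 250 bases that precede their annotated starts, because *Tnfsf11* and *Tnfrsf11a* had the lowest folds of the 7 genes in the *Dspp*+/- library while their ratio to each other differed little between libraries. The sequences are those of RefSeq on GRCm38.p6, from chr14:78308044-78308293 on the minus strand for *Tnfsf11* and from chr1:105780473-105780722 on the plus strand for *Tnfrsf11a*. Capitals mark matches, on either strand, to a TATA box (TATAAA) or a GC box (GGGCGG).
Tnfsf11: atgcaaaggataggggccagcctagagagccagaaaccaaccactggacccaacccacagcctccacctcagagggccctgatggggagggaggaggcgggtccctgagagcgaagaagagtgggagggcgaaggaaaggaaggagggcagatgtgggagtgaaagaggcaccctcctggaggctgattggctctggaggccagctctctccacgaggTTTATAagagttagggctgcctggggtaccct
Tnfrsf11a: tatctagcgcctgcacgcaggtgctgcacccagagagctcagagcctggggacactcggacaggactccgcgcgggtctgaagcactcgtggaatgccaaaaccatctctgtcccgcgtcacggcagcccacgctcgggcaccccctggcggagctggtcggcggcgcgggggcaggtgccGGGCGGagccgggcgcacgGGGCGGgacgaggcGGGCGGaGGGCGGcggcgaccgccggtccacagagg
The *Tnfsf11* window had a GC content of 60.4% and 1 TATA box match, which began 32 bases before the start. That match is on the strand opposite the printed one, where the capitals read TTTATA. In contrast, the *Tnfrsf11a* window had a GC content of 73.6%, no TATA box match and 4 GC box matches, beginning 69, 50, 36 and 29 bases before the start. Of all 32851 promoter windows of the same length, 12.4% held the TATA box and 32.7% held the GC box. The letters of a RUNX motif (TGTGGT), a PU.1 motif (GAGGAA) and an AP-1 motif (TGANTCA) were found in neither window on either strand, and they were present in 14%, 23.3% and 6.75% of all windows. These matches describe the letters and no binding was measured here. Of the 7 genes, 4 were matched in the promoter table, *Csf1* and *Traf6* being the others.

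Levels are given as FPKM, the fragments assigned to a gene per kilobase of its exons, scaled to the size of the library, so levels of different genes can be compared. The WT, *Dspp*+/- and *Dspp*-/- libraries held 20241576, 23613621 and 22253158 fragments. Fragments per gene were recovered from the table, and 95% intervals were computed from them. They cover counting error only, not the variation between mice, and amplified fragments without molecular identifiers are not independent molecules. All 7 genes had at least 256 fragments in every library, with means over the 3 libraries from 3.91 FPKM for *Tnfrsf11a* to 33.9 FPKM for *Csf1r*. Mitochondrial transcripts took 25.0% of the total FPKM of the WT library, 36.9% of the *Dspp*+/- library and 37.3% of the *Dspp*-/- library, and removing them from the scale moved the median log2 ratio of all genes from 0.058 to 0.15 in *Dspp*+/-. The libraries also differed in sex-linked transcripts. *Xist*, which is transcribed from the inactive X chromosome, had 2 fragments in WT against 12084 in *Dspp*+/- and 10563 in *Dspp*-/-, while 4 Y-linked genes summed to 36.6, 19.0 and 25.9 FPKM. Sex and genotype therefore cannot be told apart in any comparison with WT. The mutant libraries also differed from each other in the Y-linked sum, so their mix of sexes may not have been equal. The targeted gene, *Dspp*, was not analysed here and gave no check of the genotypes.

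In the *Dspp*+/- condyle RANK ligand and RANK were both less than 0.4 of the WT level, OPG and CSF1R were between 0.5 and 0.6 of it, CSF1 was lower by a smaller margin, and IL-34 and TRAF6 were within counting error of WT. In the *Dspp*-/- condyle the same genes other than *Traf6* were below WT, by smaller margins for RANK ligand, RANK and CSF1R than in *Dspp*+/-. RANK ligand was lower relative to OPG in the *Dspp*+/- library, while the *Dspp*-/- ratio was within counting error of WT. As these are bulk samples, fewer cells of a type and less RNA per cell cannot be told apart.

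**Figure D1:**
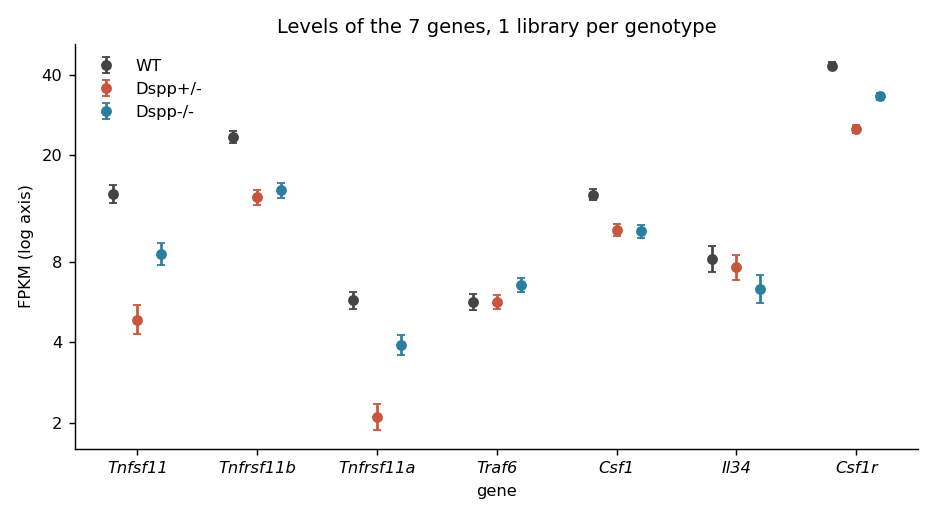
FPKM (log axis) of the 7 genes in the WT, *Dspp*+/- and *Dspp*-/- libraries, with bars for the 95% counting interval and 1 library per genotype. *Tnfsf11* and *Tnfrsf11a* have their lowest points in *Dspp*+/-, at 4.85 and 2.10 FPKM, and the 3 points of *Traf6* lie between 5.65 and 6.55 FPKM.

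*Tnfsf11* (ENSMUSG00000022015) is placed by the table on the minus strand of chromosome 14 from 78514885 to 78545483. The build of these positions is not named and is not GRCm38, so they are not on the scale of the promoter coordinates above. *Tnfsf11* measured 14.3 FPKM in WT (95% interval 13.2 to 15.4), 4.85 in *Dspp*+/- (4.27 to 5.48) and 8.56 in *Dspp*-/- (7.77 to 9.41), from 647, 256 and 426 fragments. The 3 libraries were thus well separated in counts, with the heterozygous library lowest and the homozygous library between it and WT. The *Dspp*+/- level was 0.339 of WT (0.292 to 0.393) and the *Dspp*-/- level was 0.599 of WT (0.529 to 0.678). Between both mutants, *Dspp*+/- had 0.566 of the *Dspp*-/- level (0.483 to 0.663), so the RANK ligand transcript was scarcer in the heterozygous library than in the homozygous one.

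*Tnfrsf11b* (ENSMUSG00000063727, minus strand of chromosome 15, 54114015 to 54141880) was the more abundant partner throughout. The decoy receptor transcript measured 23.4 FPKM in WT (22.1 to 24.7), 13.9 in *Dspp*+/- (13.0 to 14.9) and 14.8 in *Dspp*-/- (13.9 to 15.8), from 1333, 927 and 929 fragments. WT was highest, and the intervals of both mutants overlapped. Its fold against WT was 0.596 in *Dspp*+/- (0.548 to 0.649) and 0.634 in *Dspp*-/- (0.582 to 0.690), and the fold between the mutants was 0.940 with an interval that held 1 (0.858 to 1.03).

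The ratio of *Tnfsf11* to *Tnfrsf11b* was 0.612 in WT (0.556 to 0.672), 0.348 in *Dspp*+/- (0.302 to 0.400) and 0.578 in *Dspp*-/- (0.514 to 0.649). A ratio taken within a library does not depend on its depth or on the share taken by mitochondrial transcripts. OPG transcript exceeded RANK ligand transcript 1.63-fold in WT, 2.87-fold in *Dspp*+/- and 1.73-fold in *Dspp*-/-. The heterozygous ratio stood apart from both others, at 0.569 of the WT ratio (0.479 to 0.674) and 0.602 of the *Dspp*-/- ratio (0.501 to 0.724). The *Dspp*-/- ratio was 0.945 of the WT ratio, and its interval from 0.812 to 1.10 held 1. The lower ligand level in *Dspp*-/- was thus accompanied by a decoy level lower in similar proportion, whereas in *Dspp*+/- the ligand was lower by more than the decoy.

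**Figure D2:**
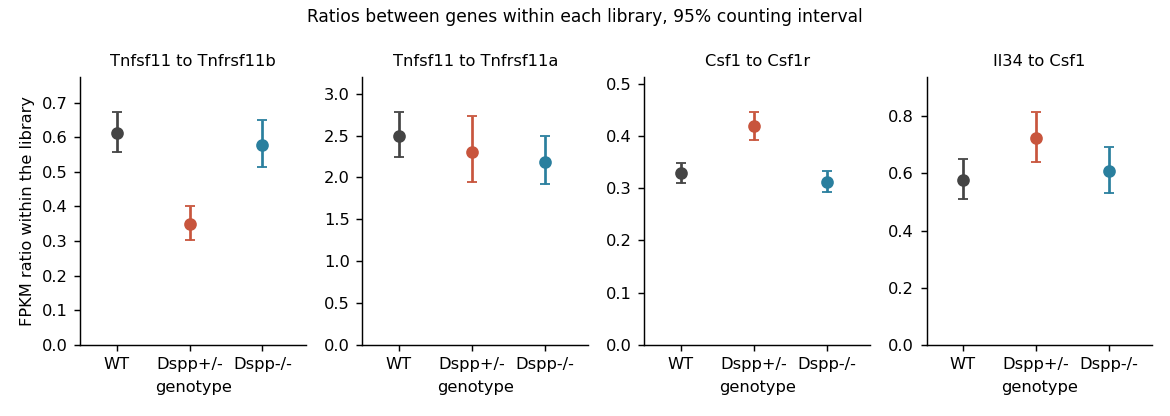
FPKM ratios between genes of the axis within each library (linear axes from 0), with bars for the 95% counting interval. The *Tnfsf11* to *Tnfrsf11b* ratio is 0.348 in *Dspp*+/- against 0.612 in WT and 0.578 in *Dspp*-/-, whereas the *Tnfsf11* to *Tnfrsf11a* intervals of the 3 libraries overlap.

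*Tnfrsf11a* (ENSMUSG00000026321, plus strand of chromosome 1, 105708443 to 105775709), which encodes the signalling receptor, was the least abundant of the 7 genes in both mutant libraries. It measured 5.73 FPKM in WT (5.31 to 6.17), 2.10 in *Dspp*+/- (1.87 to 2.35) and 3.91 in *Dspp*-/- (3.58 to 4.26), from 694, 297 and 521 fragments. The order of the libraries was that of the ligand, with *Dspp*+/- lowest and WT highest. The fold against WT was 0.367 in *Dspp*+/- (0.319 to 0.421) and 0.683 in *Dspp*-/- (0.608 to 0.766), and *Dspp*+/- had 0.537 of the *Dspp*-/- level (0.464 to 0.621).

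The proportion of ligand to receptor differed between libraries by less than counting error. *Tnfsf11* exceeded *Tnfrsf11a* 2.50-fold in WT, 2.31-fold in *Dspp*+/- and 2.19-fold in *Dspp*-/-. Against WT this ratio had a fold of 0.925 in *Dspp*+/- (0.754 to 1.13) and 0.877 in *Dspp*-/- (0.740 to 1.04), and both intervals held 1. The receptor therefore also differed from the decoy in the heterozygous library, where the ratio of *Tnfrsf11a* to *Tnfrsf11b* was 0.151 against 0.245 in WT and 0.264 in *Dspp*-/-. That ratio was 0.615 of WT in *Dspp*+/- (0.523 to 0.724) and 1.08 of WT in *Dspp*-/- (0.933 to 1.24).

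*Traf6* (ENSMUSG00000027164, plus strand of chromosome 2, 101508774 to 101532014), the adaptor that many cell types use downstream of RANK, interleukin 1 and Toll-like receptors, did not follow the other members. It measured 5.65 FPKM in WT (5.29 to 6.03), 5.66 in *Dspp*+/- (5.32 to 6.01) and 6.55 in *Dspp*-/- (6.18 to 6.94), from 902, 1053 and 1149 fragments. WT and *Dspp*+/- could not be separated, with a fold of 1.00 (0.915 to 1.09) whose direction turned with the scaling. In *Dspp*-/- the fold was 1.16 (1.06 to 1.27), which made *Traf6* the single member above WT in that library.

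**Figure D3:**
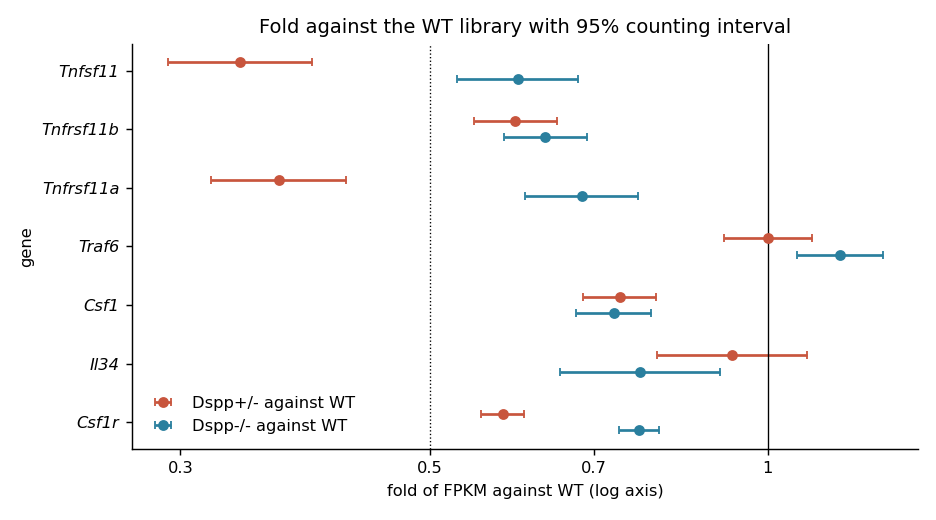
Fold of FPKM against WT (log axis) for the 7 genes in *Dspp*+/- and *Dspp*-/-, with 95% counting intervals, a solid line at a fold of 1 and a dotted line at 0.5. The *Dspp*+/- intervals of *Tnfsf11* and *Tnfrsf11a* lie wholly below 0.5, and no *Dspp*-/- interval does.

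In the CSF1 arm *Csf1* was lower than WT by less than the receptor in *Dspp*+/-, and *Il34* was within counting error of WT. *Csf1* (ENSMUSG00000014599, minus strand of chromosome 3, 107648364 to 107667785) measured 14.2 FPKM in WT (13.5 to 15.0), 10.5 in *Dspp*+/- (9.95 to 11.1) and 10.4 in *Dspp*-/- (9.81 to 11.0), from 1522, 1311 and 1220 fragments. The mutants could not be separated from each other, with a fold of 1.01 (0.936 to 1.10), and were 0.738 (0.685 to 0.795) and 0.729 (0.676 to 0.787) of WT. *Il34* (ENSMUSG00000031750, minus strand of chromosome 8, 111468461 to 111532556) measured 8.20 FPKM in WT (7.33 to 9.14), 7.61 in *Dspp*+/- (6.84 to 8.45) and 6.31 in *Dspp*-/- (5.58 to 7.10), from 325, 352 and 275 fragments. This ligand had its lowest level in *Dspp*-/-, and the WT and *Dspp*+/- intervals overlapped. Its fold was 0.928 in *Dspp*+/- with an interval that held 1 (0.796 to 1.08), and 0.770 in *Dspp*-/- (0.653 to 0.907). *Il34* shares 4.95% of its exon bases in GENCODE M21 with the antisense genes *Gm15894* and *Gm15895*, and whether the counting used strand is not given in the sources used here.

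*Csf1r* (ENSMUSG00000024621, plus strand of chromosome 18, 61233670 to 61265221) had the highest level of the 7 genes in every library. The receptor measured 43.2 FPKM in WT (42.1 to 44.5), 25.1 in *Dspp*+/- (24.3 to 26.0) and 33.2 in *Dspp*-/- (32.2 to 34.2), from 5054, 3425 and 4269 fragments, and no pair of these intervals overlapped. The libraries thus took the same order as for *Tnfsf11* and *Tnfrsf11a*. The fold against WT was 0.581 in *Dspp*+/- (0.556 to 0.607) and 0.768 in *Dspp*-/- (0.737 to 0.800). The exons of *Csf1r* overlap those of the antisense gene *Hmgxb3* over 15.1% of their length, and *Hmgxb3* was listed at 2.07, 2.30 and 2.01 FPKM.

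Ligand relative to receptor, the *Csf1* to *Csf1r* ratio was 0.329 in WT, 0.419 in *Dspp*+/- and 0.312 in *Dspp*-/-. It was 1.27 times the WT ratio in *Dspp*+/- (1.17 to 1.39) and 0.949 times the WT ratio in *Dspp*-/- (0.870 to 1.03), so the heterozygous library again stood apart, here in the direction of more ligand per receptor. *Il34* amounted to 0.576, 0.724 and 0.608 of *Csf1* in WT, *Dspp*+/- and *Dspp*-/-, and the heterozygous ratio was 1.26 times that of WT (1.06 to 1.49). Between the receptors, *Csf1r* exceeded *Tnfrsf11a* 7.55-fold in WT, 12.0-fold in *Dspp*+/- and 8.50-fold in *Dspp*-/-. The broader macrophage lineage receptor was therefore lower by less than the osteoclast receptor in *Dspp*+/-, where this ratio was 1.58 times that of WT (1.37 to 1.83).

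The order of the levels was in part the same in the 3 libraries. *Csf1r* was followed by *Tnfrsf11b* in each of them. In WT *Tnfsf11* and *Csf1* came next with overlapping intervals, then *Il34*, then *Tnfrsf11a* and *Traf6*, which also overlapped. In *Dspp*+/- *Tnfsf11* had moved below *Csf1*, *Il34* and *Traf6*, its interval overlapping that of *Traf6*, and *Tnfrsf11a* was last. In *Dspp*-/- *Tnfsf11* stood between *Csf1* and an overlapping pair of *Traf6* and *Il34*, and *Tnfrsf11a* was again last.

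To set the 7 genes against the rest of the condyle transcriptome, log2 ratios of FPKM + 1 were used over the 13026 genes whose mean level reached 1 FPKM, and a gene was counted as past 2-fold when its log2 ratio was at least 1 or at most -1. On this scale folds of low genes are understated. In *Dspp*+/- against WT 2 of the 7 genes, *Tnfsf11* at -1.39 and *Tnfrsf11a* at -1.12, were past 2-fold lower and none was higher, where 2.86% of all genes compared were lower and 4.88% higher (7.75% in either direction). In *Dspp*-/- against WT 0 of the 7 were past 2-fold in either direction, where 1.37% of all genes were lower and 4.05% higher (5.42% in either direction). Between *Dspp*+/- and *Dspp*-/- 0 of the 7 were past 2-fold, against 0.852% of all genes lower and 0.798% higher (1.65% in either direction). Both comparisons with WT use the same WT library. Of all genes compared, 1.05% had a lower log2 ratio than *Tnfsf11* in *Dspp*+/-, 2.08% than *Tnfrsf11a*, 5.45% than *Csf1r* and 6.37% than *Tnfrsf11b*. The median of the 7 log2 ratios was -0.71 in *Dspp*+/- and -0.42 in *Dspp*-/-, beside 0.058 and 0.007 for all genes. Their signs held under the 7 other pseudocounts and scalings tried for 5 of 7 genes in *Dspp*+/-, where *Il34* reached 0.0078 and *Traf6* ranged from -0.19 to 0.099, and for 7 of 7 in *Dspp*-/-. With a pseudocount of 5 FPKM neither *Tnfsf11* (-0.97) nor *Tnfrsf11a* (-0.60) was past 2-fold.

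**Figure D4:**
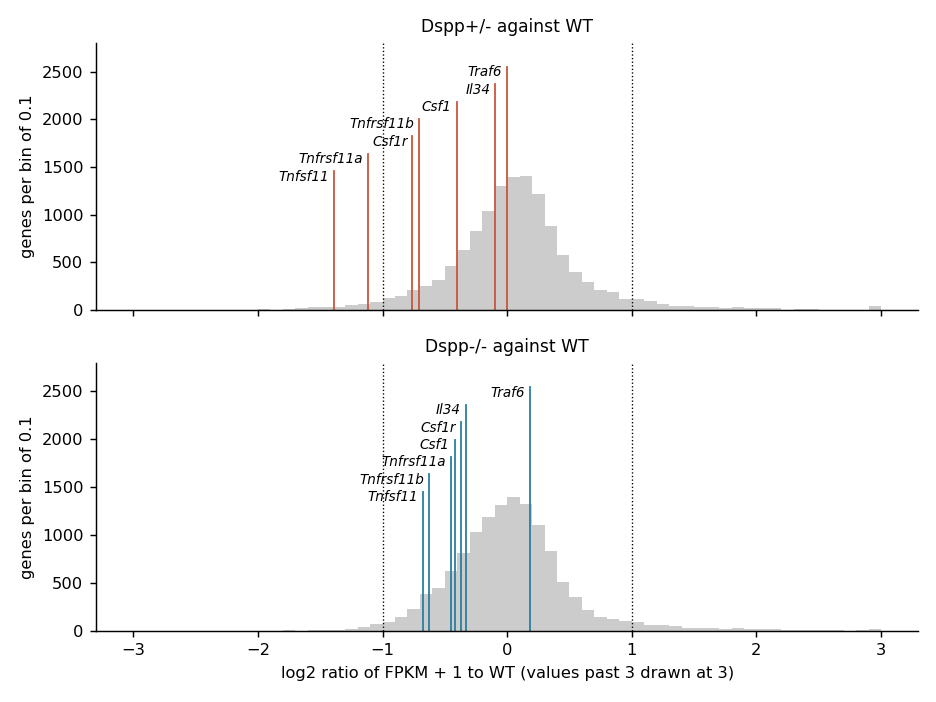
Log2 ratio of FPKM + 1 to WT for the 13026 genes compared (grey, genes per bin of 0.1, ratios past 3 drawn at 3), with labelled lines for the 7 genes whose heights carry no value, and dotted lines at -1 and 1. In *Dspp*+/- *Tnfsf11* and *Tnfrsf11a* lie below -1, whereas in *Dspp*-/- the 7 lines lie between -0.68 and 0.18.

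The wider pathway was described by lists of 80 genes, of which 71 were compared. In *Dspp*+/- 7 of the 71 (9.86%) were past 2-fold higher and 4 (5.63%) lower, beside 4.88% and 2.86% of all genes compared. Their median log2 ratio was 0.11. In *Dspp*-/- 3 (4.23%) were higher and 2 (2.82%) lower, beside 4.05% and 1.37% of all genes, with a median of 0.020. The pathway beyond the 7 genes thus did not share their low median.

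Of 23 genes that carry the signal from RANK, 2 were past 2-fold higher in *Dspp*+/- and none lower, and none passed in *Dspp*-/-. The medians were 0.14 and 0.13, and both turned negative (-0.058 and -0.026) when the libraries were scaled to equal summed FPKM. The genes past 2-fold were *Btk*, a tyrosine kinase shared with B cells, at 2.01 (WT), 5.65 (*Dspp*+/-) and 4.24 FPKM (*Dspp*-/-), and *Plcg2*, a phospholipase that releases calcium, at 5.52, 12.6 and 10.5 FPKM. *Tab2*, the most abundant of the list and a partner of the kinase TAK1, measured 26.3, 30.7 and 33.9 FPKM. Without the added 1, the *Dspp*-/- fold of *Btk* was 2.11 (1.71 to 2.62). On that scale *Blnk*, picked after its values were seen, had folds of 2.26 (1.85 to 2.77) in *Dspp*+/- and 2.19 (1.79 to 2.69) in *Dspp*-/-. Markers of B cells were also higher in the mutants, with 5 of 7 past 2-fold higher in each, summed levels of 21.8, 68.4 and 51.0 FPKM, and *Cd79b* as the most abundant at 5.90, 21.8 and 15.4 FPKM. Their part in the levels of *Btk* and *Plcg2* was not tested.

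Among transcription factors of osteoclast formation 0 of 7 were past 2-fold in either mutant on the scale of FPKM + 1. The medians were 0.11 in *Dspp*+/-, which turned to -0.11 with equal summed FPKM, and -0.15 in *Dspp*-/-. The most abundant, *Jun*, measured 31.2 (WT), 33.7 (*Dspp*+/-) and 27.6 FPKM (*Dspp*-/-). *Nfatc1*, the master regulator that RANK signalling induces and a gene picked after its values were seen, measured 24.5, 17.5 and 21.9 FPKM. *Fos*, also picked after its values were seen, had the largest log2 ratios of the list, 0.66 in *Dspp*+/- and 0.99 in *Dspp*-/-. It measured 5.08, 8.64 and 11.1 FPKM, and without the added 1 its *Dspp*-/- fold was 2.19 (1.88 to 2.55). Of 6 transcriptional brakes on osteoclast formation, *Irf8* alone was past 2-fold, and only in *Dspp*+/-. It measured 2.20 (WT), 6.23 (*Dspp*+/-) and 3.90 FPKM (*Dspp*-/-), and the most abundant, *Cebpb*, measured 63.4, 85.9 and 51.5 FPKM.

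Downstream of CSF1R, 2 of 14 genes were past 2-fold higher and 1 lower in *Dspp*+/-, and 1 was higher and 1 lower in *Dspp*-/-. *Ptpn6*, the phosphatase SHP-1 that dampens signalling in blood cells, was past 2-fold higher in both mutants, at 6.19 (WT), 18.7 (*Dspp*+/-) and 16.0 FPKM (*Dspp*-/-). *Pik3cd*, a leukocyte PI3 kinase subunit, was past 2-fold higher in *Dspp*+/-, with levels of 4.18, 9.46 and 8.12 FPKM. *Dok1*, an adaptor that restrains kinase signalling, was lower in both mutants at 16.3, 8.14 and 7.11 FPKM and passed 2-fold in *Dspp*-/-. *Socs1*, an inhibitor of cytokine signalling, measured 3.72, 1.30 and 2.16 FPKM and passed 2-fold in *Dspp*+/-. Of these 4 genes, 2 were thus above and 2 below WT, and *Mapk3*, the most abundant of the list, measured 41.7, 43.4 and 41.8 FPKM.

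Of 13 compared genes among the inducers of RANK ligand and their receptors, 2 were past 2-fold higher and 1 lower in each mutant. *Pth1r*, the receptor through which parathyroid hormone and PTHrP raise RANK ligand, was the most abundant of the list and was lower in both, at 164 (WT), 60.5 (*Dspp*+/-) and 76.6 FPKM (*Dspp*-/-). *Il1b*, an inflammatory cytokine, was higher in both but low throughout, at 0.259, 3.44 and 1.81 FPKM from 10, 155 and 77 fragments. *Il17ra*, the receptor subunit for interleukin 17, measured 2.20, 6.36 and 5.47 FPKM. Among the genes past 2-fold, the receptor that responds to parathyroid hormone thus lay on the same side of WT as *Tnfsf11*. The cytokine and cytokine receptor past 2-fold lay on the other. Of all 13, 5 were above and 8 below WT in each mutant, with cytokine receptors on both sides.

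Of 8 other binding partners and sheddases of the ligands, 2 were past 2-fold lower in *Dspp*+/- and none in *Dspp*-/-. *Mmp14*, a membrane protease able to shed RANK ligand, measured 114 (WT), 47.3 (*Dspp*+/-) and 66.1 FPKM (*Dspp*-/-). *Sdc1*, a heparan sulfate proteoglycan, measured 23.6, 7.79 and 12.5 FPKM. Both genes had the order of the libraries seen for *Tnfsf11*.

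Markers of the cells that make and receive these signals differed between the libraries as well. For scale, 43.7% of all genes compared were below WT in *Dspp*+/- and 49.3% in *Dspp*-/-. Past 2-fold, 2.86% of all genes were lower and 4.88% higher in *Dspp*+/-, and 1.37% were lower and 4.05% higher in *Dspp*-/-. The 12 osteoclast markers were all below WT in both mutants, with 7 past 2-fold lower and a median log2 ratio of -1.21 in *Dspp*+/-, and 1 past 2-fold and a median of -0.58 in *Dspp*-/-. Summed, they measured 2361, 868 and 1391 FPKM in WT, *Dspp*+/- and *Dspp*-/-, and *Ctsk*, the collagen-degrading protease of osteoclasts, measured 863, 279 and 481 FPKM. On the scale of FPKM + 1, the log2 ratio of *Tnfrsf11a* lay close to the osteoclast median in both mutants. It was above the median by 0.091 in *Dspp*+/- and by 0.12 in *Dspp*-/-. *Csf1r* lay above the osteoclast median by 0.45 in *Dspp*+/- and by 0.21 in *Dspp*-/-. Without the added 1, the *Tnfrsf11a* fold in *Dspp*+/- was 0.367, below the middle pair of osteoclast markers (0.394 and 0.398). In *Dspp*-/- its fold of 0.683 was above the middle pair (0.651 and 0.669). The side of the median on which *Tnfrsf11a* lay in *Dspp*+/- thus depended on the scale.

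The 10 macrophage and monocyte markers, of a lineage that also expresses *Csf1r*, had medians of 0.15 and -0.033 and summed levels of 163, 189 and 167 FPKM. *Csf1r* was below their median by 0.91 in *Dspp*+/- and by 0.34 in *Dspp*-/-. The most abundant, the lysosomal protein *Cd68*, measured 50.4, 34.7 and 44.3 FPKM in WT, *Dspp*+/- and *Dspp*-/-. In contrast, the inflammatory monocyte markers *Ly6c2* (1.97, 31.9 and 22.7 FPKM) and *Ccr2* (1.54, 10.1 and 7.59 FPKM), named after their values were seen, were the members of the list past 2-fold, and both were higher.

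On the side of the cells that make RANK ligand and OPG, 9 of 9 osteoblast markers were below WT in both mutants, with 8 past 2-fold and a median of -1.60 in *Dspp*+/-, and 2 past 2-fold and a median of -0.89 in *Dspp*-/-. They summed to 15892, 4378 and 8810 FPKM, and *Col1a1*, the chain of type I collagen, measured 6675, 1719 and 3610 FPKM. Of the osteocyte markers, 5 of 5 compared were below WT in both mutants, 3 past 2-fold in each, with medians of -1.42 and -1.25 and sums of 894, 369 and 357 FPKM. *Mepe*, a matrix protein of osteocytes, measured 369, 107 and 124 FPKM. Of the chondrocyte markers, 7 of 7 compared were below WT with 5 past 2-fold in each mutant, medians of -1.99 and -1.04, and sums of 1597, 454 and 703 FPKM, and *Col2a1*, the cartilage collagen, measured 761, 94.2 and 308 FPKM. On the scale of FPKM + 1, the log2 ratio of *Tnfsf11* in *Dspp*+/- was above the osteocyte median by 0.036, the osteoblast median by 0.22 and the chondrocyte median by 0.61. In *Dspp*-/- it was above them by 0.57, 0.21 and 0.36. That of *Tnfrsf11b* was above the same medians by 0.72, 0.90 and 1.29 in *Dspp*+/- and by 0.63, 0.26 and 0.41 in *Dspp*-/-. Against the osteoclast median, *Tnfsf11* differed by -0.18 and -0.10, and *Tnfrsf11b* by 0.50 and -0.048. The added 1 draws the ratios of low genes such as *Tnfsf11* closer to no change than those of abundant markers. Without it, the *Tnfsf11* fold in *Dspp*+/- was 0.339, below the 0.370 of the osteocyte marker at the median. The osteoblast marker at the median had a fold of 0.329. Marrow stromal markers, with *Cxcl12* as the most abundant at 41.3, 67.5 and 55.6 FPKM, summed to 92.3, 129 and 117 FPKM and had medians of 0.69 and 0.42. Of these 7 markers, 5 were above and 2 below WT in *Dspp*+/-, with 1 past 2-fold higher. In *Dspp*-/- 6 were above and 1 below, with 0 past 2-fold. *Tnfsf11* differed from the stromal median by -2.07 in *Dspp*+/- and -1.10 in *Dspp*-/-, and *Tnfrsf11b* by -1.39 and -1.04. What part the amounts of these cells had in the levels of the 7 genes was not tested.

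Both mutant libraries had higher levels of markers of marrow blood cells. The 7 neutrophil markers were past 2-fold higher in both mutants, with sums of 589, 2555 and 3454 FPKM and *S100a9* as the most abundant at 232, 916 and 1339 FPKM. The 7 erythroid markers were likewise past 2-fold higher in both, with sums of 903, 3747 and 3631 FPKM and *Hbb-bs* at 425, 1794 and 1886 FPKM. Markers of T cells, another source of RANK ligand, were low, with a summed level of 4.35, 5.87 and 4.90 FPKM, *Trac* as the most abundant at 2.17, 2.58 and 2.50 FPKM, and *Cd3e*, *Cd3g* and *Foxp3* at 3 fragments or fewer in at least 1 library.

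**Figure D5:**
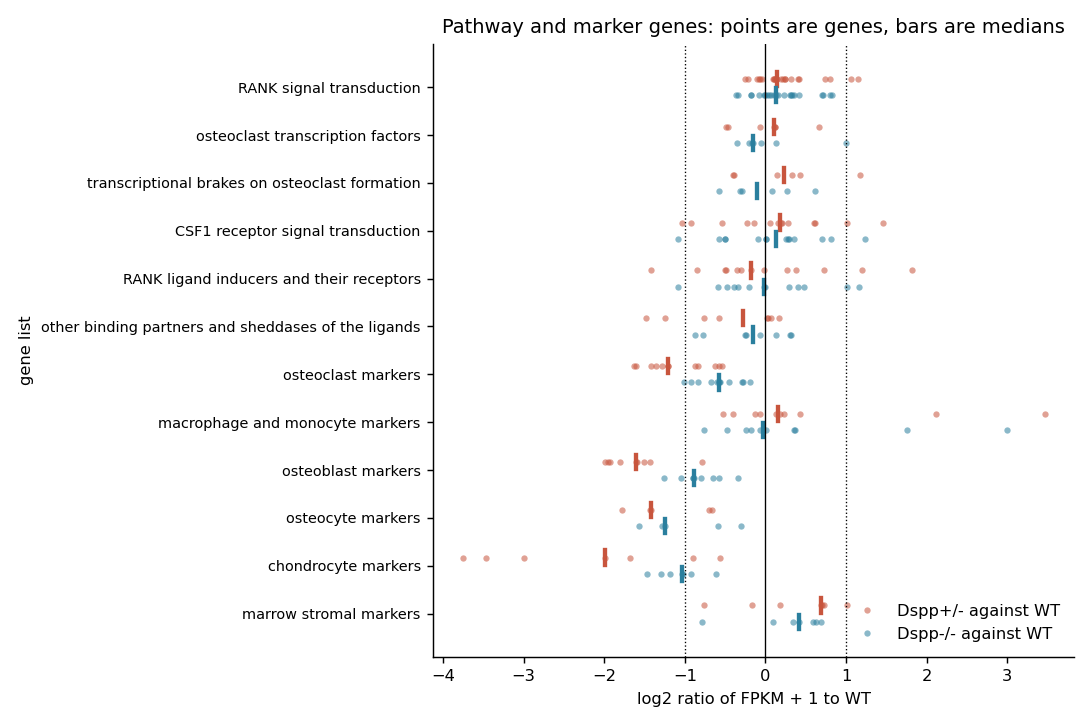
Log2 ratio of FPKM + 1 to WT for genes of the pathway and marker lists, where points are genes, vertical bars are list medians and dotted lines mark -1 and 1. Osteoclast, osteoblast, osteocyte and chondrocyte points lie below 0 in both mutants, while medians of the signalling lists lie between -0.28 and 0.23.

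Of 131 genes in the pathway and marker lists whose mean level reached 5 FPKM, the 3 nearest to each member were found by the distance between pairs of log2 ratios, *Dspp*+/- against WT and *Dspp*-/- against WT, which rest on 3 libraries. Nearest to *Tnfsf11* were *Phex* of the osteocyte list (distance 0.095), *Oscar* (0.10) and *Dcstamp* (0.13) of the osteoclast list, and 7, 10 and 20 of all genes compared were as near. *Phex* encodes a phosphate-regulating peptidase and measured 52.4, 18.8 and 34.4 FPKM, and *Dcstamp* encodes a membrane protein needed for osteoclast fusion and measured 10.0, 3.51 and 6.26 FPKM. Nearest to *Tnfrsf11a* were *Siglec15* (0.094), *Mmp9* (0.15) and *Dcstamp* (0.22), each from the osteoclast list, with 21, 54 and 117 genes as near. Nearest to *Tnfrsf11b* were *Tcirg1*, *Fmod* and *Clcn7*, with distances from 0.10 to 0.14. The pattern of *Csf1r* was nearest to *Runx2* (0.034), *Pdpn* and *Lgr4*, that of *Csf1* to *Mertk* (0.055), *Tnfrsf1a* and *Il11ra1*, that of *Il34* to *Tab1* (0.013), *Nfkb2* and *Il1r1*, and that of *Traf6* to *Adam17* (0.059), *Tek* and *Map3k7*. The third neighbours of the members other than *Tnfsf11* and *Tnfrsf11a* are less particular. As near as *Clcn7* to *Tnfrsf11b* were 173 genes, as *Il11ra1* to *Csf1* 222, and as *Lgr4* to *Csf1r* 344. For *Traf6*, 706 genes were as near as *Map3k7* was, and for *Il34*, 726 were as near as *Il1r1* was.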

How the data were processed

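Poly(A)-selected RNA from 3 condyle samples, 1 per genotype, was sequenced as paired reads. For 26970 genes the authors deposited a single table with no unit given. These deposited values were read as FPKM, because multiplying them by the exon lengths of GENCODE M21 returned whole fragments (tolerance 0.05). This held for 98.6% to 98.7% of the genes with fewer than 100 fragments in each library, and for all members except *Tnfrsf11a*. The length of *Tnfrsf11a* was set to 5987 bases, the 1 length tried that gave whole fragments in every library, against 5985 in M21. Triplicates are mentioned in the labels, although the table holds 1 column per genotype. The submitters' processing notes name FastQC 0.11.5, HISAT2 2.1.0, StringTie 1.3.3b, DESeq 1.28.0 and the build hg38, a human build although the samples are mouse. The annotation, strand setting and filters are not given in the sources used here. The positions are not those of GRCm38, since only 589 genes coincide with M21.

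Recovered fragments gave exact Poisson intervals for levels, Clopper-Pearson intervals for folds and for ratios within a library, and exact conditional intervals for folds of ratios, each at 95%. The recovery was tested on simulated data. Genes whose mean level reached 1 FPKM were compared as log2 ratios of FPKM + 1, with 2-fold as the threshold. The Kruskal-Wallis test of the study's methods cannot be applied to single libraries. Alternatives were other pseudocounts, filters, thresholds and scalings.

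Genes were named by a rule: the 7 members, pathway list genes past 2-fold against WT (at most 4 per list), the most abundant gene of a list, markers at or under 3 fragments, the 3 nearest genes to each member, *Xist* and 4 Y-linked genes. *Nfatc1*, *Fos*, *Blnk*, *Ly6c2* and *Ccr2* fall outside this rule and were chosen after their values were seen. *Hmgxb3*, *Gm15894* and *Gm15895* are named for their overlap with members. The members and lists were chosen with earlier results of these data known. *Il17a*, *Mmp7*, *Krt1* and *Dspp* were not analysed here. Keratinocyte (0 of 4 compared), endothelial, synovial lining and fibrous layer, skeletal muscle and adipocyte lists are given under the other observations. Calculations used scipy 1.17.1, pandas 2.3.3 and numpy 2.4.6 in Python 3.11.15, and plots used matplotlib 3.10.9.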

Additional observations from a re-analysis of the deposited data

How the results depend on the processing

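The ratio of *Tnfsf11* to *Tnfrsf11b* stayed within its interval in each library under both pseudocounts tried. The number of members past 2-fold lower in *Dspp*+/- against WT was 2 under every alternative run on the members except a pseudocount of 5 FPKM, where it was 0, and *Tnfsf11* ranged from -1.58 to -0.97 on the log2 scale. No paired analysis was possible because each genotype has 1 library, and for the same reason no library could be left out. Depth limits the members little, with 256 fragments as the lowest count, but the variation between mice is unknown.

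Counts of all genes past 2-fold are given as higher and lower for *Dspp*+/- against WT, then *Dspp*-/- against WT, then *Dspp*+/- against *Dspp*-/-. They were 636 and 373, 527 and 179, and 104 and 111 as reported. With a pseudocount of 0.1 FPKM they were 971 and 605, 836 and 363, and 214 and 223. With a pseudocount of 5 FPKM they were 185 and 156, 136 and 45, and 36 and 36. With a filter at a mean of 5 FPKM, the counts of higher genes were 281, 228 and 52, and those of lower genes that differed by over 1.5 times were 110 and 57 in the last 2 comparisons. Without a filter, 170 and 172 passed between the mutants. At 1.5-fold the counts were 1501 and 1166, 1152 and 1070, and 563 and 441, and at 4-fold they were 124 and 24, 103 and 6, and 13 and 15. Without mitochondrial genes, 117 were lower in *Dspp*-/-. With equal summed FPKM, a scaling chosen after seeing the data, 625 were lower in *Dspp*+/- and 341 in *Dspp*-/-. This scaling moved the share of higher genes among those past 2-fold from 63.0% to 42.7% in *Dspp*+/- and from 74.6% to 55.9% in *Dspp*-/-, and the median of all genes to -0.12 and -0.14.

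Pathway list genes past 2-fold were 7 higher and 4 lower in *Dspp*+/-, and 3 higher and 2 lower in *Dspp*-/-, as reported. In *Dspp*+/- the higher count was 1 with a pseudocount of 5 FPKM, 3 with that filter at 5 FPKM, 4 with equal summed FPKM, 13 at 1.5-fold and 0 at 4-fold, and the lower count was 7 at 1.5-fold and 0 at 4-fold. In *Dspp*-/- the higher count was 6 with a pseudocount of 0.1 FPKM, 0 with a pseudocount of 5 FPKM, 1 with that filter at 5 FPKM, 11 at 1.5-fold and 0 at 4-fold, and the lower count was 1 with a pseudocount of 5 FPKM, 0 without mitochondrial genes, 5 at 1.5-fold and 0 at 4-fold. The median of the CSF1 receptor list, 0.18 in *Dspp*+/- and 0.13 in *Dspp*-/-, was -0.027 and -0.032 with equal summed FPKM. The cause of these differences was not tested.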

Other observations

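Endothelial markers differed little between the libraries, with sums of 110, 128 and 125 FPKM in WT, *Dspp*+/- and *Dspp*-/- and 0 of 5 past 2-fold in either mutant. The most abundant, *Cdh5*, an adhesion protein of blood vessels, measured 48.9, 56.2 and 52.8 FPKM. Adipocyte markers, of cells that in marrow can also express *Tnfsf11* and *Csf1*, summed to 102, 168 and 212 FPKM, with 1 of 5 past 2-fold higher and 1 lower in *Dspp*+/- and 3 higher in *Dspp*-/-. Their most abundant gene, *Lpl*, a lipase that releases fatty acids, measured 50.0, 120 and 96.5 FPKM.

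Markers of the synovial lining and fibrous layer summed to 1523, 849 and 1040 FPKM, with 1 of 5 past 2-fold lower in *Dspp*+/- and none in *Dspp*-/-, and *Fmod*, a collagen-binding proteoglycan, measured 1032, 621 and 621 FPKM. Skeletal muscle markers summed to 9515, 12897 and 10812 FPKM, and 1 of 6 was past 2-fold lower in *Dspp*+/-. The muscle actin *Acta1* measured 5609, 8162 and 7150 FPKM. Keratinocyte markers summed to 0.859, 0.714 and 0.693 FPKM, with *Krt5* and *Krt14* at 3 fragments or fewer in at least 1 library and *Krt10* at 0.748, 0.621 and 0.595 FPKM.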
